A study of Homo sapiens with 21 samples.

Results

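The genes described here are 9 ATP-binding cassette (ABC) transporters known for drug export: ABCG2, ABCB1, ABCC1, ABCC2, ABCC3, ABCC4, ABCC5, ABCC6 and ABCC10. They were found by matching the Ensembl gene identifiers of the count tables to these symbols, and all 9 were present among the 57500 genes of each table. The RNA came in bulk from xenografts of the bladder cancer line HT1376, implanted subcutaneously in female CB17 SCID mice, which lack B and T cells and were 6 to 8 weeks old at the start. The 21 libraries formed 7 groups of 3: CPI-0209, valemetostat, MAK683, tazemetostat, PF-06821497, CPI-1205 and vehicle.

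Each compound was given by mouth once a day at 75 mg/kg. Dosing began 11 to 15 days after implantation, when tumours averaged 139 to 160 mm3. Tumours were collected on day 15, 1 hour after a dose, and whether that day counts from implantation or the first dose is not stated here. All 6 compounds act on PRC2, the polycomb complex whose catalytic subunit EZH2 (or EZH1) methylates lysine 27 of histone H3. The series names all 6 as EZH2 inhibitors, and MAK683 is known to bind the EED subunit. The study sets each compound against vehicle. All groups carry the same line, so they are 1 human tumour, and the host keeps its own stroma, vessels and innate immune cells. The labels do not say that each library came from its own animal, so p-values measure only the spread between these libraries, which may be technical.

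ABC transporters use ATP to move molecules across membranes. ABCG2 (breast cancer resistance protein), ABCB1 (P-glycoprotein) and the ABCC proteins called MRPs export drugs and their conjugates from cells, and high levels of some of them are a known cause of multidrug resistance in cultured cancer cells. ABCB1 takes mainly hydrophobic drugs, ABCG2 a wide range of drugs and sulfate conjugates, ABCC1, ABCC2 and ABCC3 glutathione and glucuronide conjugates, and ABCC4 and ABCC5 also export cyclic nucleotides and nucleotide analogues.

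The promoter windows of the 2 members that moved most often, ABCG2 and ABCC4, are shown because they moved in opposite directions under the same compounds. Each runs 250 bases before to 50 bases after a transcript start, from RefSeq (GRCh38.p14), on the gene's strand. The ABCG2 window lies at chr4:88158860-88159159 (minus strand) and is the one of its 5 windows nearest to an exon start in the deposited tables. The ABCC4 window lies at chr13:95301402-95301701 (minus strand). Capitals mark matches on either strand to GCGTG (the xenobiotic response element core), GGGCGG (the GC box) or TGACNNNGC (the antioxidant response element).
ABCG2: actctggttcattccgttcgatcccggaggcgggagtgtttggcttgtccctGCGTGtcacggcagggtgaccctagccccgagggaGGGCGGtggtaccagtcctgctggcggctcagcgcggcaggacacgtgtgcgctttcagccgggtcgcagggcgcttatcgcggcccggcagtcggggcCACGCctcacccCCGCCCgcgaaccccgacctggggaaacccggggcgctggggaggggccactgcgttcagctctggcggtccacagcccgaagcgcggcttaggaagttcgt
ABCC4: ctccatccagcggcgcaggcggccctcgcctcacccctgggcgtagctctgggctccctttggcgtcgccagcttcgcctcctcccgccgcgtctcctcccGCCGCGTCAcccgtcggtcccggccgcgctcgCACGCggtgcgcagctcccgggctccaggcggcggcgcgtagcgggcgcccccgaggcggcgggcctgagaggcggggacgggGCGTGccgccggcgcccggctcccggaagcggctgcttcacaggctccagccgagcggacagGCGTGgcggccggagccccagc

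Both windows are GC-rich. The ABCC4 window has 79.7% G or C and 47 CpG, with an observed over expected CpG ratio of 0.992, and the ABCG2 window has 70.0% G or C, 33 CpG and a ratio of 0.901. Over all 35116 windows of the same length, the medians were 58.7% G or C, 14 CpG and a ratio of 0.579. The ABCC4 window holds 3 matches to the xenobiotic core and 1 to the antioxidant element, and the ABCG2 window holds 2 to the xenobiotic core and 2 to the GC box. Of all windows, 36.5% hold the xenobiotic core, 45.0% the GC box and 13.3% the antioxidant element. The CCAAT box, searched by those letters and held by 34.6% of windows, has no match in these 2 windows and 2 in a window of ABCB1. A window was found for 7 members, 14 windows in all, and ABCC1 and ABCC3 had none. The lowest ratios among the 14 were 0.0660 for the ABCC2 window and 0.102 for a window of ABCB1, with 1 CpG each.

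The shallowest library, CPI-0209 library 3, held 9725690 counts and the deepest 25771778. CPM are counts scaled by library size and TMM factor, tests are edgeR quasi-likelihood tests of 21958 genes in 1 fit, and "called" means an adjusted p under 0.05. The mRNA of the targeted EZH2 averaged 87.7 CPM with CPI-0209, against 72.6 CPM in vehicle (edgeR adjusted p 0.0362). The compounds block the protein, so its mRNA is no check of the labels. Markers of the labelled carcinoma were abundant, and the 5 epithelial ones summed to 3632 to 4156 CPM with CPI-0209, against 3652 to 4153 CPM in vehicle. The 7 basal markers summed to 8983 to 11819 CPM with CPI-0209, against 16958 to 17448 CPM in vehicle, with 5 called lower and 1 higher. The 8 luminal urothelial markers summed to 390.2 to 478 CPM with CPI-0209, against 724 to 816 CPM in vehicle, and of 5 tested 3 were lower and 1 higher. Among all genes tested, 18.8% were called lower and 22.3% higher with CPI-0209. In vehicle UPK1B averaged 602 CPM, GATA3 152 CPM and PPARG 14.3 CPM, whereas UPK3A was at 0 in all 3 libraries and UPK1A in 2. The part of these tumour cell markers in the members' levels was not tested.

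Compared per length of exonic sequence, ABCG2 stood first of the 9 in vehicle tumours and in every compound group except CPI-0209, where ABCC3 stood first. In CPM per kb, ABCC3 averaged 13.6 ± 0.550 and ABCG2 10.1 ± 0.801 with CPI-0209, against 9.35 ± 1.10 and 25.2 ± 2.10 in vehicle (SD, n = 3). With valemetostat and with MAK683 the libraries of ABCG2 and ABCC3 overlapped on this scale. ABCC1, ABCC5 and ABCC10 came next in every group, at 4.57, 4.02 and 2.80 CPM per kb with CPI-0209 and 7.55, 4.89 and 2.96 in vehicle. ABCC2 stood at 0.306 CPM per kb with CPI-0209 and 0.600 in vehicle. The lowest 3 in vehicle were ABCC4, ABCC6 and ABCB1, at 0.0516, 0.0449 and 0.0410 CPM per kb, and neighbours among these 3 overlapped. ABCG2 made up 27.8% ± 1.18 of the summed per-length level of the 9 genes with CPI-0209, against 49.7% ± 0.465 in vehicle, and ABCC3 made up 37.6% ± 2.64 with CPI-0209, against 18.4% ± 1.23 in vehicle. The sum itself was 36.1 ± 1.35 CPM per kb with CPI-0209, against 50.7 ± 3.81 in vehicle (SD, n = 3). The share of ABCC3 therefore rose more than its level.

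**Figure D1:**
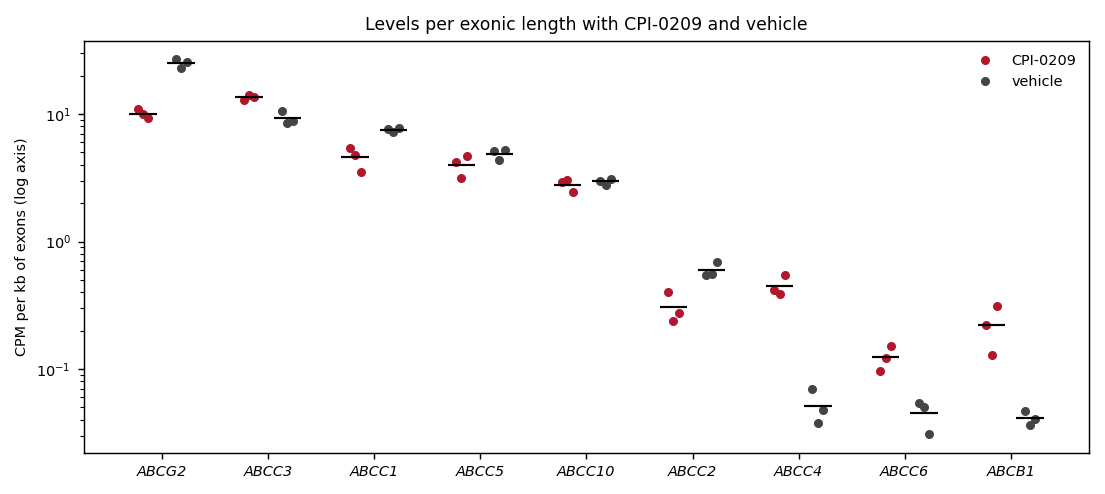
Level per length (CPM per kb of exonic sequence, log axis) of the 9 transporter genes with CPI-0209 (red, left) and vehicle (grey, right). Points are the 3 libraries of a group and lines their mean. ABCG2 is highest in vehicle at 25.2 CPM per kb, and ABCC3 is highest with CPI-0209 at 13.6 CPM per kb.

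Against vehicle, CPI-0209 had the most members called, 4 higher (ABCC4, ABCB1, ABCC6, ABCC3) and 3 lower (ABCG2, ABCC2, ABCC1) of 9. Of all genes tested, 41.1% were called in that comparison, 22.3% higher and 18.8% lower, so many genes moved. In bulk samples, fewer cells of a type and less RNA per cell cannot be told apart. Valemetostat had 2 higher (ABCC4, ABCB1) and 2 lower (ABCG2, ABCC1), where 15% of all genes were called higher and 12.2% lower, 27.3% in all. MAK683 and PF-06821497 each had ABCC4 higher and ABCG2 lower and no other member called. Of all genes, 15.6% were called with MAK683 (10.4% higher, 5.17% lower) and 9.55% with PF-06821497 (5.96% higher, 3.59% lower). Tazemetostat and CPI-1205 had 0 members called by edgeR, limma-voom or DESeq2, and 0% of all genes by edgeR. At an unadjusted p under 0.05, edgeR gave 1 member with tazemetostat (ABCC4) and 0 with CPI-1205. Libraries did not overlap with vehicle for 7 members with CPI-0209 (55% of all genes), 5 with valemetostat (47%), 3 with MAK683 (36%), 5 with tazemetostat (10.9%), 5 with PF-06821497 (27.3%) and 1 with CPI-1205 (20%). The median log2 fold change of the 9 with CPI-0209 was -0.08, against -0.02 over all genes tested. Upper-quartile scaling moved the median of all genes by 0.14 with CPI-0209 and the share of calls that were higher to 67.5%, against 54.2% with TMM (67.2% against 55.2% with valemetostat), and no called member changed direction.

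**Figure D2:**
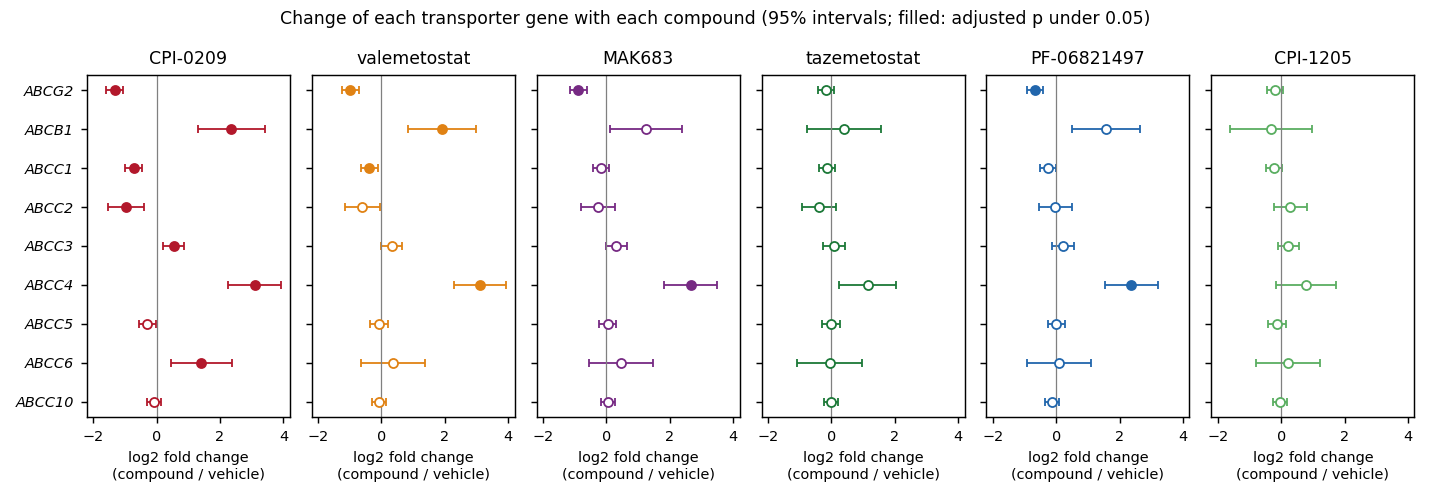
Log2 fold changes against vehicle of the 9 transporter genes for each compound, from the edgeR fit, with 95% intervals; filled points were called. ABCC4 lies furthest to the higher side with CPI-0209 (3.10) and ABCG2 furthest to the lower side (-1.32).

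ABCG2 (ENSG00000118777, hg38 chr4:88090264-88231322, minus strand) exports a wide range of drugs, porphyrins and urate, and was the member lower with most compounds. Its level was 52.8, 48.4 and 45.1 CPM in the 3 CPI-0209 libraries and 63.4, 66.1 and 56.5 CPM in the valemetostat libraries. With MAK683 it was 59.4, 66.7 and 72.2 CPM, and with PF-06821497 it was 65.3, 85.9 and 79.7 CPM. With tazemetostat it was 110.0, 108 and 107 CPM, with CPI-1205 it was 86.7, 114 and 119 CPM, and in vehicle it was 130.2, 111 and 125 CPM. Every CPI-0209, valemetostat, MAK683, PF-06821497 and tazemetostat library was below every vehicle library, whereas CPI-1205 libraries overlapped with vehicle. CPI-0209 left 0.400 of the vehicle level, with means of 48.8 ± 3.88 CPM against 122 ± 10.2 CPM (SD, n = 3 each) and a log2 fold change of -1.32 ± 0.13 (SE, edgeR adjusted p 7.61e-08). ABCG2 fell by 0.98 ± 0.13 with valemetostat (edgeR adjusted p 6.22e-06), by 0.88 ± 0.13 with MAK683 (3.66e-05) and by 0.67 ± 0.13 with PF-06821497 (0.00157) on the log2 scale.

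The log2 fold changes with tazemetostat (-0.17, 95% interval -0.43 to 0.09) and CPI-1205 (-0.20, -0.46 to 0.06) were not called for ABCG2. In order of mean level, the groups ran CPI-0209, valemetostat, MAK683, PF-06821497, CPI-1205, tazemetostat and vehicle. Neighbours in that order did not overlap between CPI-0209 and valemetostat, between PF-06821497 and CPI-1205, and between tazemetostat and vehicle. All 4 calls held for ABCG2 in every fit that left out 1 library. Over all genes, 2.45% were called lower with all 4 of CPI-0209, valemetostat, MAK683 and PF-06821497, which share their vehicle libraries.

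**Figure D3:**
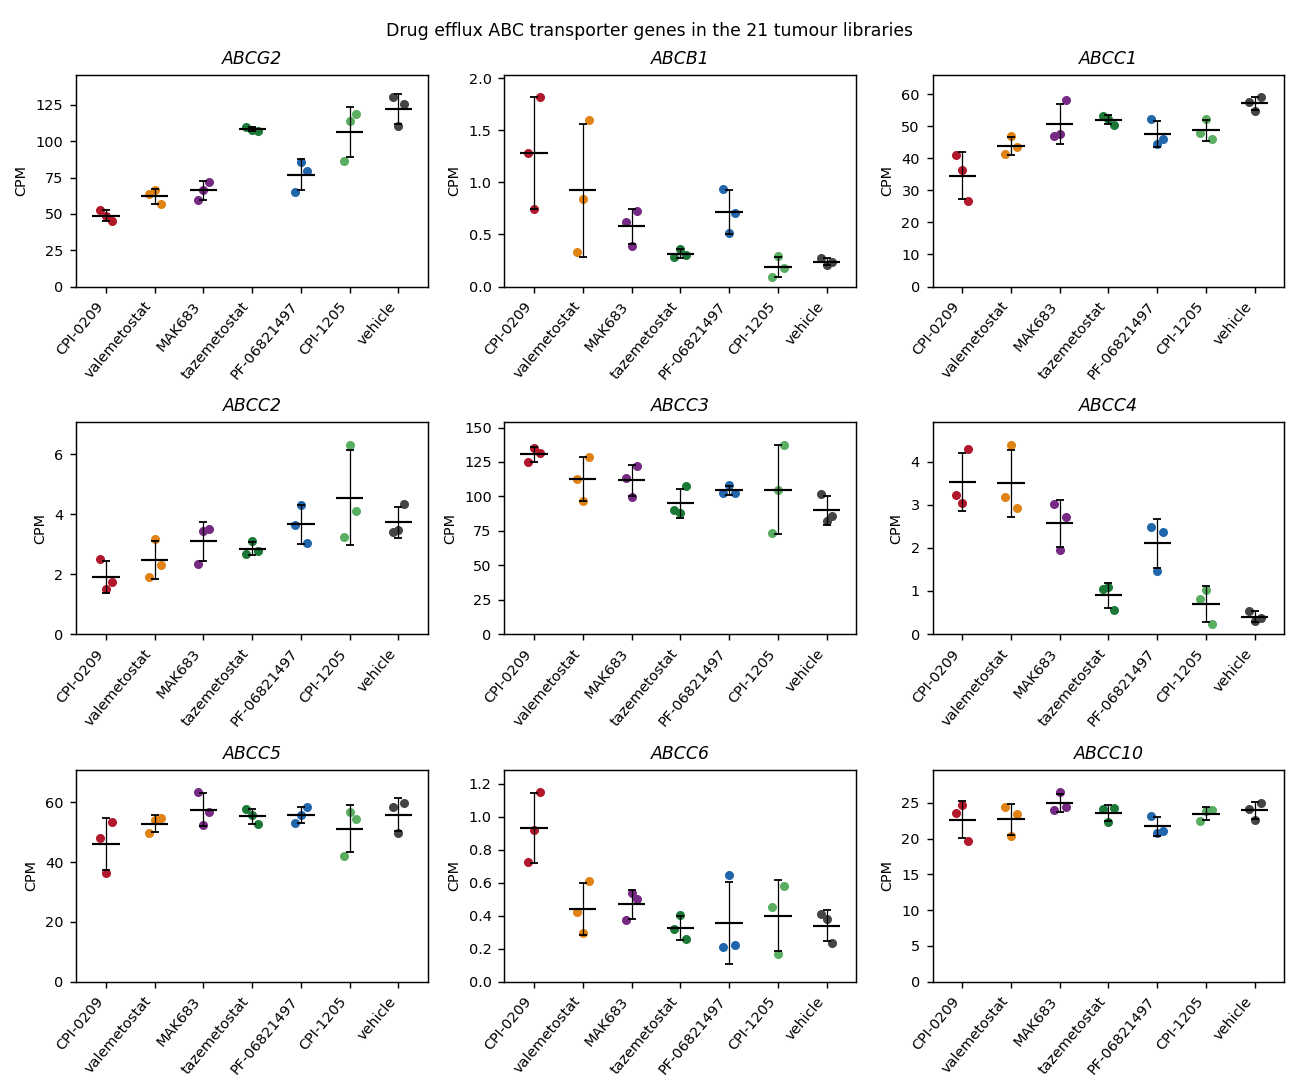
Level (CPM) of each of the 9 transporter genes in every library, by group, with the mean (line) and SD (bars) of 3 libraries. ABCG2 lies between 45.1 and 52.8 CPM with CPI-0209 and between 111 and 130.2 CPM in vehicle, and ABCC4 between 3.05 and 4.30 CPM with CPI-0209 and between 0.294 and 0.543 CPM in vehicle.

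ABCB1 (ENSG00000085563, chr7:87503633-87713323, minus strand) encodes P-glycoprotein, which pumps many hydrophobic cancer drugs out of cells, and was scarce in every group. The CPI-0209 libraries held 23, 13 and 19 counts (1.28, 0.747 and 1.82 CPM), the valemetostat libraries 7, 17 and 29 counts (0.327, 0.839 and 1.60 CPM) and the vehicle libraries 6, 5 and 5 counts (0.272, 0.210 and 0.233 CPM). All CPI-0209 and valemetostat libraries lay above all vehicle libraries. The log2 fold changes were 2.36 ± 0.51 with CPI-0209 (edgeR adjusted p 0.000809) and 1.91 ± 0.51 with valemetostat (0.00767). With MAK683 (0.618, 0.391 and 0.721 CPM) and PF-06821497 (0.935, 0.516 and 0.702 CPM) every library was also above vehicle, but the adjusted p of 0.136 and 0.0626 from edgeR missed the threshold. Without valemetostat library 3 the valemetostat call was lost (1.29, edgeR adjusted p 0.0824). With PF-06821497 ABCB1 was called under 4 other settings, among them no filter on low counts (1.57, 0.0385). Tazemetostat gave 0.315 ± 0.0427 CPM and CPI-1205 0.186 ± 0.0992 CPM, against 0.238 ± 0.0312 CPM in vehicle (SD, n = 3), and neither was called.

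ABCB1 and ABCC6 had 0 vehicle libraries at or above the filter's cut of 0.460 CPM and ABCC4 had 1, so these 3 entered the test through the compound groups. Within groups, ABCB1 was also compared with markers of another tissue. In 6 of the 7 groups the library highest in ABCB1 had the highest mean log2 level of the 11 skeletal muscle markers. For the other members this held in 1 to 4 groups, and for ABCB1 with the 11 endothelial markers it held in 4. The 6 is the largest of these counts, and with 3 libraries a group some matches arise by chance. ABCB1 had few counts in some groups, as with tazemetostat (7, 9 and 7), so its highest library there is uncertain. The muscle markers summed to 306 to 1690 CPM with CPI-0209, against 458 to 526 CPM in vehicle. Of the 11, 5 were called higher and 1 lower, where 22.3% and 18.8% of all genes were. Most of the vehicle sum was TNNT3, which averaged 414 CPM in vehicle and 205 CPM with CPI-0209. ACTA1 averaged 12.8 CPM in vehicle and 151 CPM with CPI-0209, and MYH1 9.18 and 114 CPM. CPI-0209 library 3, with 1690 CPM, was the highest. With valemetostat, where ABCB1 was also called higher, these markers summed to 260 to 315 CPM, with 0 called higher and 1 lower. Most of that sum was again TNNT3, which averaged 202 CPM with valemetostat. The median log2 fold change of the 11 markers with valemetostat was 0.37. Their mean log2 level ran from 1.99 to 3.56 with valemetostat, against 0.704 to 3.41 in vehicle. The lower sum therefore does not stand for the list as a whole. With a muscle marker term in the fit, chosen after the data were seen, the ABCB1 log2 fold change with CPI-0209 was 1.5 (edgeR adjusted p 0.0163). The mean log2 marker level used as the term ran from 3.11 to 6.34 with CPI-0209 and from 0.704 to 3.41 in vehicle, so the term partly follows the compound. The part of muscle tissue in the ABCB1 level was not tested.

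ABCC4 (MRP4, ENSG00000125257, chr13:95019829-95301446, minus strand) exports cyclic AMP, prostaglandins, urate and nucleotide analogues, and had the largest rise of the 9. Its counts were 58, 53 and 45 with CPI-0209 (3.23, 3.05 and 4.30 CPM) and 68, 89 and 53 with valemetostat (3.17, 4.39 and 2.92 CPM), against 12, 7 and 8 in vehicle (0.543, 0.294 and 0.373 CPM). MAK683 gave 3.03, 1.96 and 2.72 CPM, and PF-06821497 gave 2.49, 1.46 and 2.37 CPM. Each library of these 4 groups was above each vehicle library. The mean with CPI-0209 was 3.53 ± 0.676 CPM against 0.403 ± 0.128 CPM in vehicle (SD, n = 3 each), a log2 fold change of 3.10 ± 0.40 (edgeR adjusted p 3.14e-06). Valemetostat gave the same rounded value, 3.10 ± 0.40 (5.20e-06), MAK683 2.65 ± 0.40 (7.51e-05) and PF-06821497 2.37 ± 0.41 (0.000633, all edgeR adjusted p).

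Tazemetostat libraries (1.04, 1.09 and 0.561 CPM) were above every vehicle library for ABCC4, but the log2 fold change of 1.15 (95% interval 0.25 to 2.05) had an edgeR adjusted p of 1, with an unadjusted p of 0.0144. CPI-1205 libraries (0.817, 1.03 and 0.224 CPM) overlapped with vehicle (0.78, 95% interval -0.15 to 1.71). From high to low the group means ran CPI-0209, valemetostat, MAK683, PF-06821497, tazemetostat, CPI-1205 and vehicle, and the only neighbours that did not overlap were PF-06821497 and tazemetostat. The 4 calls held without any single library. Over all genes, 4.51% were called higher with all 4 compounds.

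ABCC1, ABCC2 and ABCC3 export conjugates, and they did not move the same way. ABCC1 (MRP1, ENSG00000103222, chr16:15949577-16143074, plus strand), which carries glutathione conjugates and leukotriene C4, had 41.0, 36.3 and 26.7 CPM with CPI-0209, against 57.5, 55.0 and 59.1 CPM in vehicle. No CPI-0209 library reached the vehicle range, and the log2 fold change was -0.72 ± 0.13 (edgeR adjusted p 0.000123). With valemetostat it had 41.4, 47.0 and 43.5 CPM, a change of -0.38 ± 0.13 (edgeR adjusted p 0.0279). That call was lost without valemetostat library 1 (edgeR adjusted p 0.102) or 3 (0.0951), and without vehicle library 1 (0.0644) or 3 (0.114). It was also lost with upper-quartile scaling (0.0856) and with no filter on low counts (0.0780). Libraries of tazemetostat, PF-06821497 and CPI-1205 were also all below vehicle for ABCC1, with log2 fold changes of -0.14, -0.26 and -0.23 that were not called.

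ABCC2 (MRP2, ENSG00000023839, chr10:99782732-99852192, plus strand), known from the bile-facing membrane of liver cells, had 2.51, 1.49 and 1.72 CPM with CPI-0209, against 3.40, 3.48 and 4.33 CPM in vehicle. The groups did not overlap, and the log2 fold change was -0.95 ± 0.27 (edgeR adjusted p 0.00762). Valemetostat averaged 2.46 ± 0.636 CPM and also lay below vehicle (-0.60, edgeR adjusted p 0.0927), and without valemetostat library 2 it was called (-0.83, 0.0426). The CPI-1205 libraries spread widely, between 3.22 and 6.31 CPM.

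ABCC3 (MRP3, ENSG00000108846, chr17:50634777-50692252, plus strand), which exports glucuronides and bile salts across the basolateral membrane, had 125, 135.4 and 131 CPM with CPI-0209, against 102, 82.1 and 85.7 CPM in vehicle. The groups did not overlap, and ABCC3 rose by 0.54 ± 0.16 on the log2 scale (edgeR adjusted p 0.0111). Without vehicle library 2 the call was lost (0.46, edgeR adjusted p 0.0593). No other compound had ABCC3 called, and CPI-1205 libraries ran between 73.1 and 137 CPM.

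ABCC6 (ENSG00000091262, chr16:16148928-16223522, minus strand), whose loss is known to cause the calcification disorder pseudoxanthoma elasticum, had 13, 16 and 12 counts with CPI-0209 (0.725, 0.920 and 1.15 CPM), against 9, 9 and 5 counts in vehicle (0.407, 0.378 and 0.233 CPM). The groups did not overlap, and the log2 fold change was 1.41 ± 0.46 (edgeR adjusted p 0.0183). At the filter's cut of 0.460 CPM, ABCC6 had 0 vehicle libraries and all 3 CPI-0209 libraries, so it was tested because of groups where it was higher. Only CPI-0209 library 3 reached 1 CPM, and a filter of at least 1 CPM in 3 libraries leaves ABCC6 out. The call was lost without CPI-0209 library 3 (1.25, edgeR adjusted p 0.0589) or vehicle library 3 (1.23, 0.0698). ABCC6 has near-identical pseudogene copies, ABCC6P1 and ABCC6P2, which can share its reads, so its counts are uncertain. ABCC6 lies 5853 bases from ABCC1 and their genes run toward each other, and the 2 moved in opposite directions with CPI-0209.

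ABCC5 (MRP5, ENSG00000114770, chr3:183919934-184018015, minus strand), an exporter of cyclic GMP, and ABCC10 (MRP7, ENSG00000124574, chr6:43427366-43450430, plus strand), which can carry taxanes, were called with no compound. ABCC5 averaged 46.0 ± 8.72 CPM with CPI-0209 and between 51.1 and 57.5 CPM with the other 5 compounds, against 55.9 ± 5.44 CPM in vehicle (SD, n = 3). Its log2 fold change with CPI-0209 was -0.29 (95% interval -0.56 to -0.01, edgeR adjusted p 0.0910), and it was called without CPI-0209 library 3 (-0.40, 0.0324) or vehicle library 2 (-0.38, 0.0480). ABCC10 stood at 22.6 ± 2.61 CPM with CPI-0209 and 23.9 ± 1.22 CPM in vehicle, and over the 6 compounds its intervals reached no lower than -0.36 and no higher than 0.28 on the log2 scale. ABCC10 shares 79 exonic bases with DLK2 on the other strand, and reads there cannot be assigned without the strand setting, which is not given in the sources used here.

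All compounds were given at 1 dose and schedule, so their readouts were also set against each other. In the test over the 6 compounds, 5 of 9 members differed, where 32.3% of all genes did: ABCG2 (edgeR adjusted p 1.02e-06), ABCC4 (5.84e-05), ABCB1 (0.00256), ABCC2 (0.0107) and ABCC1 (0.0110). Each of the 9 members was also tested in each of the 15 pairs. Of these tests, 33 were called within the pair and 31 with p adjusted over all 15 pairs, and over all genes 12.2% of such tests were called within the pair. Against tazemetostat, CPI-0209 had 6 members called (37% of all genes), valemetostat 3 (20.3%) and MAK683 2 (9.2%). Against CPI-1205, CPI-0209 had 6 (35.2% of all genes), valemetostat 4 (21.5%), MAK683 2 (15.4%) and PF-06821497 3 (4.8%). CPI-0209 had 4 against PF-06821497 (22.6%) and 2 against MAK683 (9.08%), and tazemetostat had 1 against PF-06821497 (2.4%). ABCG2 held 10 of the 33, ABCC4 7, ABCB1 5, ABCC1 4, ABCC2 3, ABCC6 3 and ABCC3 1, and ABCC5 and ABCC10 held 0 by edgeR. With p adjusted over all 15 pairs ABCC3 held 0 and ABCC6 1 by edgeR, and ABCC4 held 8.

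For ABCG2, the log2 difference of CPI-0209 was -1.15 ± 0.13 against tazemetostat and -1.12 ± 0.13 against CPI-1205 (edgeR p adjusted over 15 pairs 3.13e-06 and 3.95e-06). It was -0.66 ± 0.13 against PF-06821497 (0.00127) and -0.44 ± 0.13 against MAK683 (0.0275), and the last of these lost its call under 11 other settings, among them leaving out CPI-0209 library 2 or 3 or MAK683 library 2 or 3. Valemetostat and MAK683 were each lower in ABCG2 than tazemetostat and CPI-1205, with log2 differences between -0.69 and -0.80. PF-06821497 was lower in ABCG2 than CPI-1205 (-0.47, edgeR adjusted over 15 pairs 0.0163) and tazemetostat higher than PF-06821497 (0.49, 0.0116). Both of these lost their call when PF-06821497 library 1 or 3 was left out. The sample titles and the count columns number the 3 PF-06821497 libraries differently, and the titles' numbers are used. The first also did so without CPI-1205 library 2 or 3, and the second without any 1 of the 3 tazemetostat libraries.

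ABCC4 was higher with CPI-0209, valemetostat and MAK683 than with tazemetostat, by 1.95, 1.95 and 1.5 on the log2 scale, and than with CPI-1205, by 2.32, 2.32 and 1.87. PF-06821497 was above CPI-1205 for ABCC4 (1.59, edgeR adjusted over 15 pairs 0.00653), a call lost without PF-06821497 library 1 or 3 or CPI-1205 library 3. Tazemetostat was below PF-06821497 for ABCC4 with no overlap of libraries (-1.22), with an edgeR p of 0.0294 adjusted over 15 pairs and 0.0813 within the pair. The call of MAK683 against tazemetostat for ABCC4 was lost without tazemetostat library 3. ABCB1 was higher with CPI-0209 than with tazemetostat (1.96 ± 0.48, edgeR adjusted over 15 pairs 0.00891) and CPI-1205 (2.68 ± 0.52, 0.00135).

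No member was called by edgeR in the other 5 pairs, although the intervals leave room for differences. CPI-0209 against valemetostat gave -0.34 for ABCG2 (95% interval -0.61 to -0.08, edgeR adjusted over 15 pairs 0.0886), with no overlap of libraries, and -0.0038 for ABCC4 (-0.68 to 0.67). Of all genes, 0% were called in that pair and in tazemetostat against CPI-1205, 0.0273% in valemetostat against MAK683, 4.62% in valemetostat against PF-06821497 and 1.17% in MAK683 against PF-06821497. At an unadjusted p under 0.05, CPI-0209 against valemetostat had 3 members, valemetostat against PF-06821497 3, tazemetostat against CPI-1205 1 and the other 2 pairs 0. MAK683 against PF-06821497 gave -0.22 for ABCG2 (-0.48 to 0.04), and tazemetostat against CPI-1205 gave 0.02 (-0.24 to 0.28). Valemetostat against MAK683 gave -0.09 for ABCG2 (-0.36 to 0.17) and against PF-06821497 gave -0.31 (-0.57 to -0.05).

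Other genes of drug handling were described by list, with up to 4 genes of smallest p with CPI-0209 named from each. Of all genes tested, CPI-0209 had 22.3% called higher and 18.8% lower, and valemetostat 15% and 12.2%. MAK683 had 10.4% and 5.17%, PF-06821497 5.96% and 3.59%, and tazemetostat and CPI-1205 0%. Of 30 other ABC superfamily genes tested (39 listed), CPI-0209 had 7 higher and 5 lower, and their median log2 fold change was 0.12, against -0.02 over all genes. Valemetostat had 5 higher and 4 lower, MAK683 5 and 2, PF-06821497 1 and 2, and tazemetostat and CPI-1205 0 and 0 by edgeR. TAP1 and TAP2, the peptide pump of MHC class I loading, were at 247 and 73.6 CPM with CPI-0209, against 89.8 and 38.8 CPM in vehicle. CFTR, a chloride channel of the ABCC family, was at 9.74 ± 0.391 CPM with CPI-0209, against 0.263 ± 0.119 CPM in vehicle (log2 fold change 5.16 ± 0.76, edgeR adjusted p 2.92e-05), and was also called higher with valemetostat, MAK683 and PF-06821497. ABCA5, a lysosomal lipid transporter, fell to 20.6 ± 4.58 CPM with CPI-0209, against 57.9 ± 3.77 CPM in vehicle (-1.5 ± 0.20, edgeR adjusted p 3.70e-06).

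Of 28 drug uptake, other efflux and vault genes tested (33 listed), CPI-0209 had 9 higher and 10 lower (median log2 fold change 0.05). Valemetostat had 6 and 6, MAK683 4 and 3, and PF-06821497 4 and 3. Over all genes, 41.1% were called with CPI-0209, 27.3% with valemetostat, 15.6% with MAK683 and 9.55% with PF-06821497. SLC47A2 (MATE2), an efflux carrier of organic cations, fell by 2.45 ± 0.21 with CPI-0209. SLC28A3, a concentrative nucleoside carrier that takes up nucleoside drugs, rose by 1.33 ± 0.20. SLCO2B1, an organic anion carrier, rose by 3.71 ± 0.54, with 1.44 CPM against 0.104 CPM in vehicle (all log2, edgeR).

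Of 29 xenobiotic sensors, regulators of transporter genes and membrane anchors tested (31 listed), CPI-0209 had 4 higher and 11 lower (median log2 fold change -0.22), valemetostat 3 and 10, MAK683 2 and 3, and PF-06821497 1 and 3. For this list and the next, all genes had 22.3% higher and 18.8% lower with CPI-0209 (median -0.02), and 15% and 12.2% with valemetostat. They had 10.4% and 5.17% with MAK683, and 5.96% and 3.59% with PF-06821497. EPAS1 (HIF-2 alpha) fell by 1.04 ± 0.13 and RXRA, the partner of many nuclear receptors, by 0.68 ± 0.11 with CPI-0209. NR1H4, the bile acid receptor FXR, rose by 3.15 ± 0.35 and HNF4A, a liver transcription factor, by 4.03 ± 0.56. NR1H4 and HNF4A averaged 3.34 and 3.01 CPM with CPI-0209, against 0.373 and 0.174 CPM in vehicle. Of 28 conjugation and glutathione enzymes tested (46 listed, 45 matched), CPI-0209 had 5 higher and 9 lower (median -0.06), valemetostat 4 and 5, MAK683 3 and 3, and PF-06821497 2 and 1. SULT1A1, a phenol sulfotransferase, rose by 1.99 ± 0.17, SULT1A2 by 2.24 ± 0.32 and SULT2A1, which sulfates steroids, by 4.44 ± 0.67, and GSTA4, a glutathione transferase, fell by 2.22 ± 0.27 with CPI-0209. SULT1A1 and SULT1A2 are near-identical copies, so their split is uncertain.

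ABCG2 and ABCC4 were each called in at least 3 comparisons with vehicle, and for each the 3 genes with the most similar 6 log2 fold changes were found among 16338 genes with a mean of at least 1 CPM. Nearest to ABCG2 were PPFIBP1, TIMP3 and NAV2, whose 6 values differed from it by a root mean square of 0.058, 0.067 and 0.068. TIMP3 had -1.36 with CPI-0209, -0.97 with valemetostat, -0.83 with MAK683, -0.23 with tazemetostat, -0.58 with PF-06821497 and -0.30 with CPI-1205. Nearest to ABCC4 were MPDZ, PRKX and SNX10, at 0.11, 0.13 and 0.23. MPDZ had 3.17, 3.30, 2.61, 1.26, 2.48 and 0.69 in the same order of compounds. All 6 comparisons share their vehicle libraries.

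Neighbouring genes were also read, chosen by position after values were seen. They were the nearest tested protein-coding gene on each side that does not overlap the member. Overlapping genes, such as RUNDC3B at ABCB1, were passed over. Those of ABCG2, ABCC4 and ABCB1 are given. PPM1K, 26297 bases from ABCG2, rose by 1.70 with CPI-0209 and PKD2, 12486 bases away on the other side, fell by 0.65 (edgeR adjusted p 6.56e-07 and 0.00723). DZIP1, 276755 bases from ABCC4, rose by 3.61 (1.47e-08), whereas GPR180, 385183 bases away on the other side, had -0.34 and was not called (0.0912). CROT, 103837 bases from ABCB1, fell by 2.27 (1.03e-08), as did SLC25A40 by 0.62 (0.0173), while ABCB1 itself was higher.

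Vessel cells are known to express ABCB1 and ABCG2, and their markers differed from vehicle with some of the compounds. The 11 endothelial markers summed to 74.5 to 95.4 CPM with CPI-0209, 62.4 to 76.4 CPM with valemetostat, 67.8 to 85.1 CPM with MAK683 and 36.9 to 47.4 CPM with PF-06821497. They summed to 32.8 to 37.1 CPM with tazemetostat and 22.9 to 45.1 CPM with CPI-1205, against 31.0 to 36.0 CPM in vehicle. Of 10 tested, 6 were called higher and 2 lower with CPI-0209, 5 and 2 with valemetostat, 4 and 1 with MAK683, 1 and 1 with PF-06821497, and 0 with tazemetostat and CPI-1205 by edgeR. Over all genes tested, 22.3% were called higher and 18.8% lower with CPI-0209, and 15% and 12.2% with valemetostat. The shares were 10.4% and 5.17% with MAK683, 5.96% and 3.59% with PF-06821497, and 0% with tazemetostat and CPI-1205. PECAM1 stood at 27.4 CPM with CPI-0209 against 1.99 CPM in vehicle and EGFL7 at 33.3 against 18.1 CPM, whereas CDH5 stood at 0.804 against 1.88 CPM and VWF at 1.33 against 3.07 CPM. None was at 0 in every library of either group. With an endothelial marker term in the fit, chosen after the data were seen, CPI-0209 against vehicle gave -0.60 for ABCG2 (edgeR adjusted p 0.0423), 1.97 for ABCC4 (0.0667), 1.25 for ABCB1 (0.433) and 1.61 for ABCC6 (0.272). It gave -0.42 for ABCC1 (0.275) and -0.02 for ABCC2 (0.986), whereas ABCC3 gave 1.08 (0.0276), above its 0.54 without the term. ABCG2 and ABCC3 were the 2 members that kept their call. The mean log2 marker level used as the term ran from 1.76 to 2.27 with CPI-0209 and from 0.898 to 1.00 in vehicle. These groups did not overlap in it, so the term and the compound can hardly be told apart in this fit. The part of these markers in the members' levels was not tested. Of 7 macrophage markers tested, 4 were higher and 1 lower with CPI-0209, and of 10 fibroblast markers 6 and 2. The macrophage markers summed to 169 to 203 CPM with CPI-0209, against 154 to 184 CPM in vehicle, and the fibroblast markers to 1731 to 4405 CPM, against 1273 to 2045 CPM. TYROBP, C1QA and C1QC were at 0 in all 3 vehicle libraries.

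**Figure D4:**
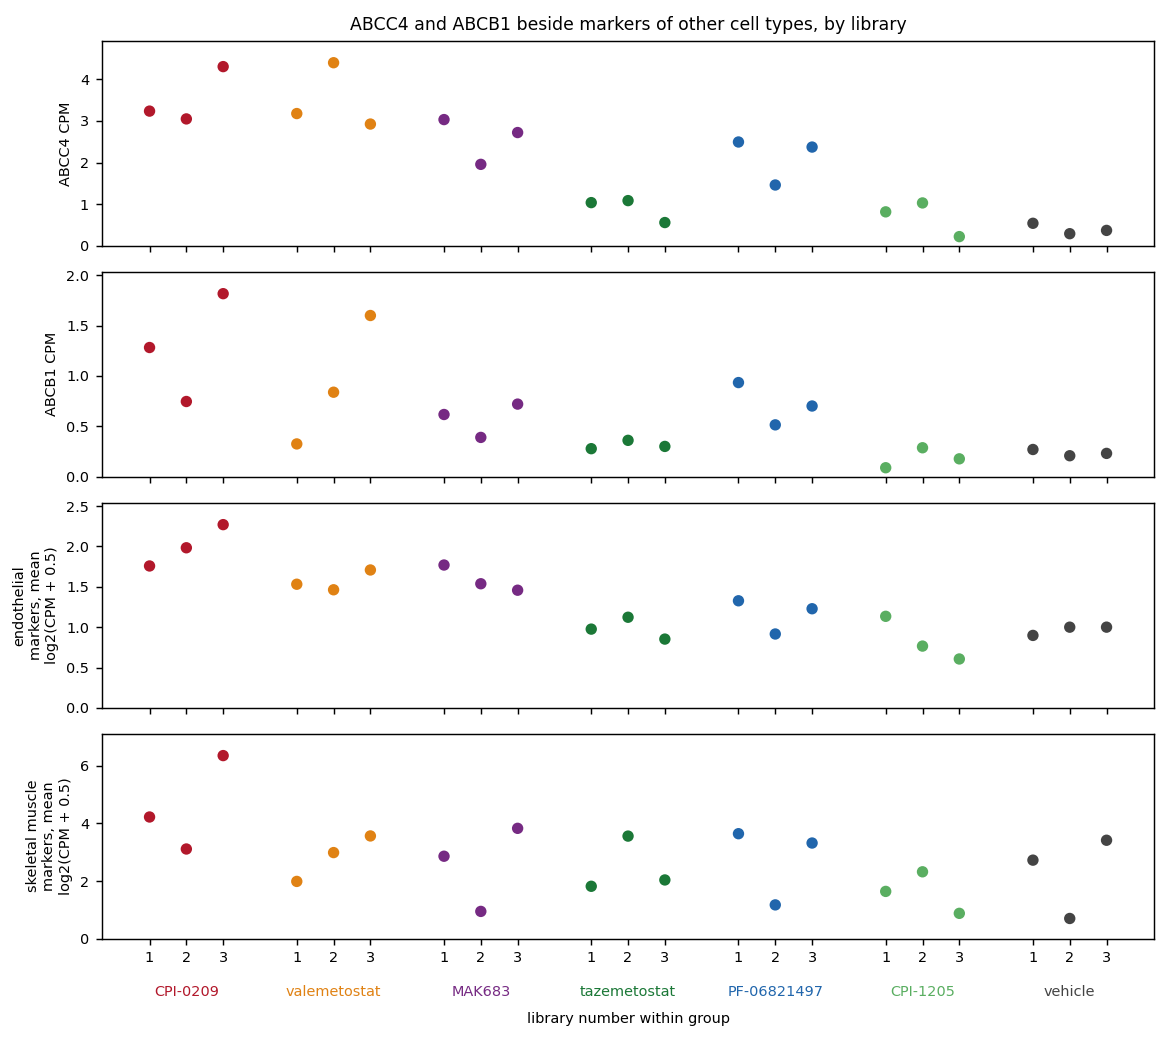
Level of ABCC4 and ABCB1 (CPM) and mean log2(CPM + 0.5) of 11 endothelial and 11 skeletal muscle markers in each library, by group. CPI-0209 library 3 is highest in muscle markers, at 6.34, and in ABCB1, at 1.82 CPM.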

How the data were processed

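RNA-seq libraries of HT1376 xenografts were counted per Ensembl gene by the authors, and the deposited values are raw counts on hg38. Per the submitters' processing notes, STAR 2.7.3a and RSEM 1.3.1 were used. Which program counted reads, with what strand setting and annotation, and whether mouse reads were removed is not given in the sources used here. Gene length is the deposited exonic length. Symbols came from GENCODE 29 (56898 of 57500 matched).

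The counts were tested with edgeR 4.0.16 (R 4.3.3). Genes were kept by filterByExpr by group (21958) and scaled by TMM. The quasi-likelihood test (robust, two-sided) used 1 fit of 21 libraries with a term per group and Benjamini-Hochberg adjustment over all genes tested, at 0.05. SE is the log2 fold change divided by the square root of F. DESeq2 1.42.0, limma 3.58.1 (voom), other scalings, filters, a 1.5-fold threshold, 2-group fits, a replicate block, terms for or omission of 3 libraries marked as resubmitted, and omission of each library were alternatives. The endothelial and muscle marker terms were added after the data were seen.

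All 9 members are named throughout, with up to 4 genes of smallest p with CPI-0209 from each list, and 3 genes of like pattern for members called in at least 3 comparisons. One gene that this rule names is not reported here. Members and lists were chosen with earlier results of these data known. The pipeline was tested on simulated data, in which only genes at 1 CPM or more in vehicle were changed. It does not cover levels as low as those of ABCB1, ABCC4 and ABCC6 in vehicle (0.238, 0.403 and 0.339 CPM).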

Additional observations from a re-analysis of the deposited data

How the results depend on the processing

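No called value changed direction under any alternative run. Tested against a 1.5-fold change, 3 members were called with CPI-0209 against vehicle (7 otherwise), 1 with MAK683 and 1 with PF-06821497 (2 otherwise), and 11 pair tests (33 otherwise), since that test asks for a larger change. With the endothelial marker term, 2 members were called with CPI-0209 and 2 with valemetostat (4 otherwise). That fit gave 3 pair tests and 0 members over the 6 compounds (5 otherwise), and the cause was not tested. CPI-0209 and vehicle libraries did not overlap in that term, so term and compound can hardly be told apart there. Leaving out each library in turn gave 6 to 7 members with CPI-0209, 2 to 5 with valemetostat, 2 with MAK683 and with PF-06821497, 0 with tazemetostat and with CPI-1205, 26 to 33 pair tests and 4 to 6 members over the 6 compounds. The lowest valemetostat count came without valemetostat library 3.

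Libraries of the same replicate number showed no clear common deviation. Correlations of 18 pairs ran from -0.20 to 0.22, with 6 over 0.1, and 7 libraries were closest to their own number. With 3 libraries a group, this check cannot settle whether the numbers pair the samples. With the replicate block, 27 pair tests were called and the counts against vehicle were 7, 4, 2, 0, 2 and 0 as without it. DESeq2 gave 32 and limma-voom 31 pair tests, and both gave the same counts against vehicle. Upper-quartile scaling and no filter on low counts each gave 3 with valemetostat and 3 with PF-06821497. A filter of at least 1 CPM in 3 libraries gave 6 with CPI-0209 and 29 pair tests. For PF-06821497 the titles and the count columns differ in library numbers and in which library is marked as resubmitted, so the block and the omission rest on the titles. Omitting libraries marked as resubmitted gave 8 with CPI-0209 and 5 with valemetostat.

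Depth limits ABCB1, ABCC4 and ABCC6, which had 12 counts or fewer in each vehicle library.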
